A study of Mus musculus with 4 samples.

Results

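Elastin and the proteins of its microfibrils form a group of 10 genes here: Eln, Fbn1, Fbln1, Fbln2, Fbln5, Efemp2, Mfap2, Mfap4, Mfap5 and Emilin1. They were taken by name, without regard to their values, and all 10 were found among the 18112 genes common to 3 single-cell libraries of the mouse aorta. They were followed in smooth muscle cells, taken as cells with at least 5 UMIs of Myh11 and 0 of Pdgfra, and in fibroblasts, taken as cells with at least 1 UMI of Pdgfra and at most 2 of Myh11. A UMI (unique molecular identifier) stands for 1 captured transcript. Of 27867 cells kept, 13293 met the smooth muscle gate and 7421 the fibroblast gate.

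The study asked how cells of the ascending aorta that descend from the second heart field (SHF) differ from cells of other origins in their response to angiotensin II (AngII), a hormone that constricts arteries and promotes aortic aneurysm in mice. All mice were male and of the strain labelled Mef2c-mTmG, in which mTmG is a fluorescent reporter that changes colour in cells with Cre activity and in their descendants; the labels give neither the Cre allele nor the age. Digested tissue was sorted for live single cells by this lineage signal and captured with 10x Chromium Single Cell 3′ v3 chemistry. The libraries were SHF_Baseline, from SHF cells without infusion, SHF_AngII, from SHF cells after 3 days of AngII, and CNC_AngII, from cells labelled CNC after 3 days of AngII; the labels do not spell out CNC. The sample labelled CNC_Baseline was not analysed here. Each group is a single library, so no difference has a replicate check, no test was made, and the number of mice behind a library is not given.

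The elastic fibre gives the aortic wall its recoil. Tropoelastin, the product of Eln, is secreted as a soluble monomer, gathers on a scaffold of fibrillin microfibrils and is cross-linked by lysyl oxidases into an insoluble core. Fibulins and microfibril-associated proteins link the monomer, the enzyme and the scaffold, and fibrillin microfibrils also hold latent TGF-beta through its binding proteins. In the aorta, smooth muscle cells of the media make most of the elastic lamellae, and adventitial fibroblasts make matrix of their own.

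In each gate the markers of the labelled kind had the highest sum. The 7 smooth muscle markers fixed for this work summed to between 56831 and 64253 CPM (UMIs of a gene per 1000000 UMIs of the cells in question) in the smooth muscle gate and to 1295, 4061 and 3957 CPM in the fibroblasts of SHF_Baseline, SHF_AngII and CNC_AngII. The 7 fibroblast markers summed to 37105, 15089 and 13281 CPM in fibroblasts and to 1742, 1900 and 1786 CPM in smooth muscle cells, where Col1a1, which both classes express, made up the largest term and Pdgfra was at 0 by the gate. Pericyte markers summed to 271, 166 and 149 CPM in fibroblasts and to 131, 92.1 and 76.5 CPM in smooth muscle cells. Endothelial markers summed to at most 57.9 CPM, in fibroblasts of SHF_Baseline. Markers of macrophages summed to 2.61 and 1.31 CPM in the SHF smooth muscle cells. They summed to 223 CPM in smooth muscle cells and 169 CPM in fibroblasts of CNC_AngII. That library alone held macrophages in number, 1419 cells with at least 1 UMI of Ptprc and 5 of Lyz2, at most 2 of Myh11 and 0 of Pdgfra, against 7 and 10 in the SHF libraries. Levels in those macrophages are given below as the background of CNC_AngII, except for Mfap4 and Emilin1. For Mfap2 only the share of cells with a UMI is given. Whether this background comes from free RNA, doublets or the cells themselves was not tested.

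The 3 libraries held between 9412 and 11166 barcodes and between 92474476 and 150954701 UMIs. Smooth muscle cells numbered 2259, 4649 and 6385 in SHF_Baseline, SHF_AngII and CNC_AngII, with median depths of 12441, 13336 and 13450 UMIs, and fibroblasts 3939, 2640 and 842, with 9534, 15485.5 and 12379.5 UMIs. Their median mitochondrial share was 7.36%, 5.43% and 5.16% in smooth muscle and 4.09%, 2.82% and 2.75% in fibroblasts. The AngII files list 32285 genes, and the baseline file lists 18760 under partly older names, so a difference between AngII and baseline also holds whatever differed between those annotations and preparations; its part was not tested. Between 29 and 34 barcodes were shared by each pair of libraries. All intervals below are at 95% and cover counting error only. A gene is called higher or lower where its ratio is at least 1.5-fold, with 1 CPM added to both sides.

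On the mouse genome build GRCm38 the genes lie apart from each other. Eln covers chr5:134702593-134747323 on the minus strand in 36 exon blocks, and Emilin1 lies on the same chromosome at chr5:30913402-30921277 on the plus strand. Fbn1 covers chr2:125300594-125507993 on the minus strand, with 65 exon blocks. Fbln2 and Mfap5 share chromosome 6, at chr6:91212455-91272540 and chr6:122505845-122529290, both on the plus strand. The remaining genes are Fbln1 at chr15:85205949-85286535, Efemp2 at chr19:5473954-5482517, Mfap2 at chr4:141010418-141015984 and Mfap4 at chr11:61485431-61488900, all on the plus strand, and Fbln5 at chr12:101746565-101819055 on the minus strand. No exon of these 10 genes overlaps an exon of another gene on the same strand in the annotation used. On the opposite strand, exons of Eln, Fbn1, Efemp2 and Mfap4 overlap those of Gm30003, Gm9913, Mus81 and Mapk7 by 267, 2442, 173 and 89 bases, and the sources used here do not say whether reads were counted by strand.

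Eln, which encodes tropoelastin, was the gene of the group with the most UMIs in smooth muscle cells. Its level there was 2603 CPM (2585 to 2622) in SHF_Baseline, 4309 CPM (4293 to 4324) in SHF_AngII and 5774 CPM (5759 to 5789) in CNC_AngII. The 3 levels stood apart beyond counting error. In fibroblasts the level was 2696 CPM (2679 to 2713), 3865 CPM (3847 to 3883) and 4475 CPM (4436 to 4514), in the same order of libraries. Eln was thus at a like level in both classes: the fibroblast over smooth muscle log2 ratio was 0.05 in SHF_Baseline, which turned to -0.20 under TMM scaling (a trimmed mean of log ratios over genes in place of the total), -0.16 in SHF_AngII and -0.37 in CNC_AngII. The SHF_AngII over SHF_Baseline log2 ratio was 0.73 (0.72 to 0.74) in smooth muscle, past the 1.5-fold mark, and 0.52 (0.51 to 0.53) in fibroblasts, short of it. When cells were thinned to 5000 UMIs before the gate was applied, the smooth muscle value was 0.44. With TMM scaling the fibroblast value was 0.80. The sum of smooth muscle markers in fibroblasts, 1295 CPM in SHF_Baseline and 4061 CPM in SHF_AngII, moved with it, and its part was not tested.

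**Figure D1:**
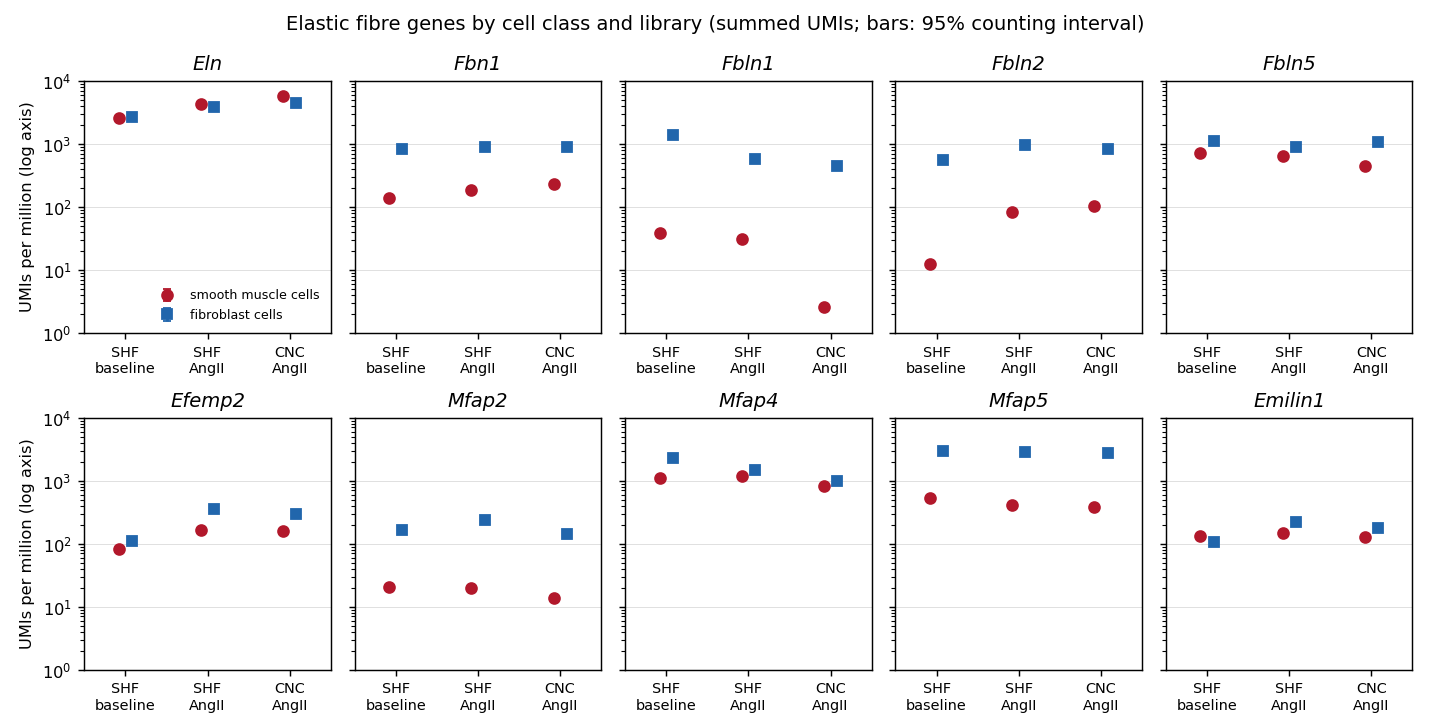
Level of each elastic fibre gene in smooth muscle cells (circles) and fibroblasts (squares) of the 3 libraries, in CPM of summed counts on a log axis; bars, mostly smaller than the symbols, are 95% Poisson intervals. Eln lies between 2603 and 5774 CPM in both classes, whereas Fbln1 in smooth muscle cells goes down to 2.59 CPM in CNC_AngII.

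The summed level of Eln covered a wide spread over cells, and in both classes the distance between quartiles was larger in both AngII libraries. In smooth muscle cells the median cell had 2120 CPM in SHF_Baseline, 2500 CPM in SHF_AngII and 3897 CPM in CNC_AngII. The lower quartile of cells was at 1203, 1040 and 1901 CPM, and the 90th percentile at 4827, 8374 and 10761 CPM. In SHF_AngII the lower quartile was therefore below that of SHF_Baseline, while the upper part of the distribution lay above it. At an equal depth of 5000 UMIs per cell, the variance of Eln UMIs over their mean was 6.88, 17.6 and 17.8 in smooth muscle, and the top 10% of cells (by Eln UMIs) held 26.1%, 32.4% and 28.7% of all Eln UMIs. In fibroblasts the median cell had 1404, 2057 and 2122 CPM. The lower quartile of fibroblasts was at 314, 491 and 460 CPM, and the upper quartile at 3922, 5323 and 6166 CPM. Their ratio of variance to mean, which grows with the level, was 19.3, 22.8 and 28.1. The top 10% of fibroblasts held 38.0%, 36.0% and 36.3% of Eln UMIs, so that this share was not larger under AngII. Nearly every smooth muscle cell carried the transcript: 98.3%, 96.6% and 99.2% of the thinned cells had an Eln UMI (unthinned, 99.6%, 98.2% and 99.6%), against 46.6% of thinned macrophages in CNC_AngII, whose level was 124 CPM at a median depth of 11549 UMIs.

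**Figure D2:**
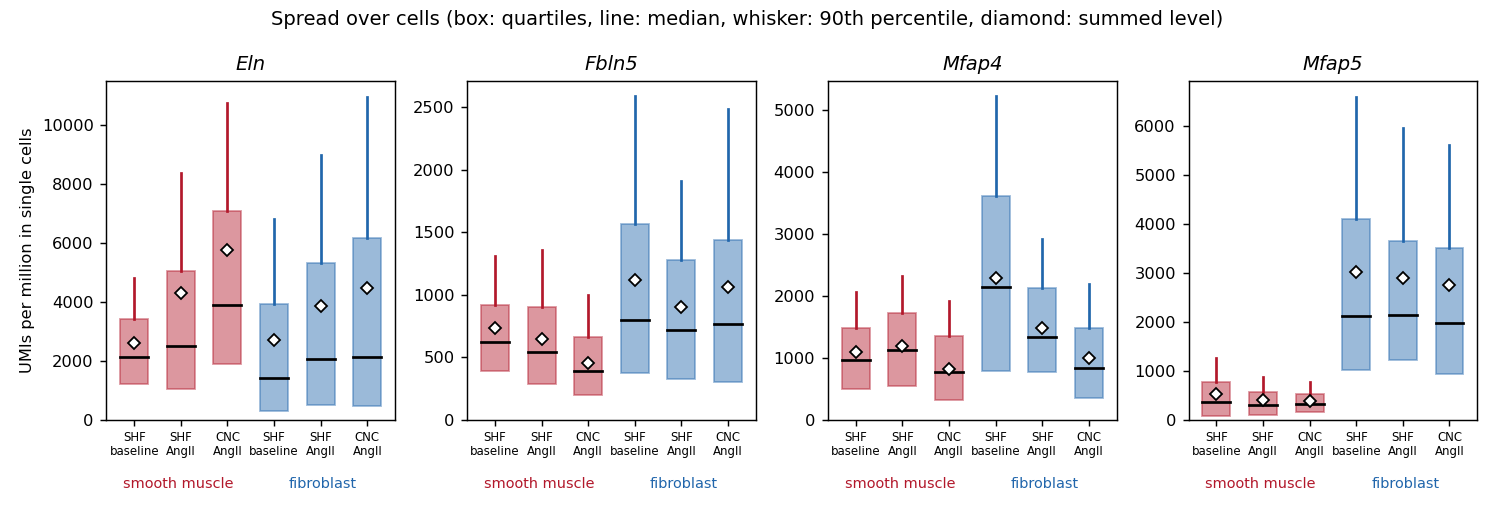
Spread over single cells of Eln, Fbln5, Mfap4 and Mfap5, in CPM, for smooth muscle cells (red) and fibroblasts (blue) of each library; boxes are quartiles, lines medians, whiskers reach the 90th percentile and diamonds are summed levels. In smooth muscle cells the Eln box runs from 1203 to 3418 CPM in SHF_Baseline and from 1040 to 5060 CPM in SHF_AngII.

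Fbn1 encodes fibrillin-1, the main building block of microfibrils. It was higher in fibroblasts than in smooth muscle in every library. In smooth muscle it stood at 140 CPM (135 to 144) in SHF_Baseline, 183 CPM (180 to 186) in SHF_AngII and 232 CPM (229 to 235) in CNC_AngII, in the same order as Eln. The fibroblast levels were 822, 894 and 910 CPM. The log2 ratio of fibroblasts over smooth muscle accordingly went from 2.55 in SHF_Baseline to 2.28 in SHF_AngII and 1.97 in CNC_AngII. Neither the AngII ratio (0.39 in smooth muscle, 0.12 in fibroblasts) nor the lineage ratio (0.34 and 0.03) reached 1.5-fold. In the macrophages of CNC_AngII, Fbn1 was at 4.90 CPM.

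The 3 microfibril-associated proteins of the Mfap genes did not share a pattern. Mfap5 encodes MAGP-2, a small glycoprotein that binds fibrillins. Its level in fibroblasts was 3013, 2892 and 2750 CPM in SHF_Baseline, SHF_AngII and CNC_AngII, and in smooth muscle 529, 406 and 382 CPM, with 9.63 CPM in the macrophages. Fibroblasts were higher by log2 2.51, 2.83 and 2.84. The AngII ratio was -0.38 in smooth muscle and -0.06 in fibroblasts, the latter 0.22 with TMM scaling. Mfap2 encodes MAGP-1, the close relative of MAGP-2. In fibroblasts it was at 167 CPM (163 to 171) in SHF_Baseline, 241 CPM (237 to 246) in SHF_AngII and 144 CPM (137 to 151) in CNC_AngII. The highest level thus belonged to SHF_AngII, and the log2 ratio of CNC_AngII over SHF_AngII was -0.74 (-0.82 to -0.67), past 1.5-fold. In smooth muscle Mfap2 was low, at 20.3, 19.9 and 13.7 CPM, and a UMI was found in 9.30%, 8.50% and 6.36% of thinned cells against 0.362% of macrophages (unthinned, 21.6%, 22.2% and 16.5% against 0.423%).

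Mfap4 encodes a fibrinogen-domain glycoprotein that binds tropoelastin and fibrillin. Its fibroblast level was 2288 CPM (2272 to 2303) in SHF_Baseline, 1477 CPM (1466 to 1488) in SHF_AngII and 993 CPM (975 to 1012) in CNC_AngII. The 3 fibroblast levels descended without overlap of their intervals. In smooth muscle it was 1089, 1187 and 825 CPM, with SHF_AngII the highest. The AngII log2 ratio was -0.63 in fibroblasts, which was -0.35 with TMM scaling, and 0.12 in smooth muscle. The lineage ratio was -0.57 in fibroblasts and -0.52 in smooth muscle, both just inside the 1.5-fold mark. In SHF_Baseline fibroblasts were higher than smooth muscle by log2 1.07, and in the AngII libraries by 0.32 and 0.27.

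Fibulin-4, encoded by Efemp2, and fibulin-5, encoded by Fbln5, are the fibulins needed to form elastic fibres: the first brings lysyl oxidase to tropoelastin, and the second tethers elastin to microfibrils and to cells. Efemp2 was at 81.9 CPM (78.7 to 85.3) in smooth muscle of SHF_Baseline, 166 CPM (163 to 169) in SHF_AngII and 160 CPM (158 to 163) in CNC_AngII. In fibroblasts it was at 111 CPM (108 to 114), 359 CPM (353 to 364) and 296 CPM (286 to 306). The baseline level was thus the lowest of the libraries in both classes. The AngII log2 ratio was 1.01 (0.95 to 1.08) in smooth muscle and 1.68 (1.64 to 1.74) in fibroblasts, and it stayed above 1.5-fold in both classes under each alternative tried. The share of thinned cells with a UMI was 33.4% and 55.3% in SHF_Baseline and SHF_AngII smooth muscle, and 40.8% and 78.5% in the fibroblasts (unthinned, 62.3%, 84.0%, 59.0% and 94.2%). The macrophages had 16.1 CPM.

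Fbln5 moved little with AngII. In smooth muscle it was at 731 CPM in SHF_Baseline, 644 CPM in SHF_AngII and 454 CPM in CNC_AngII, and in fibroblasts at 1117, 898 and 1061 CPM. The lowest level was that of CNC_AngII in smooth muscle and that of SHF_AngII in fibroblasts. The AngII log2 ratio was -0.18 and -0.32 in the respective classes, and the lineage ratio -0.50 in smooth muscle and 0.24 in fibroblasts. In the macrophages of CNC_AngII, Fbln5 was at 18.4 CPM.

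Fibulin-2, encoded by Fbln2, binds fibrillin-1, tropoelastin and basement membrane proteins. Its smooth muscle level was 12.7 CPM (11.4 to 14.0), from 375 UMIs, in SHF_Baseline, 84.5 CPM (82.4 to 86.7) in SHF_AngII and 104 CPM (102 to 106) in CNC_AngII. Both AngII libraries were far above the baseline library. The AngII log2 ratio of 2.64 (2.58 to 2.89 without the added CPM) was the largest of the group. It was 1.40 with the stricter cell filter and 6.06 with 5% of the library profile subtracted. In SHF_Baseline, smooth muscle Fbln2 was 4.04% of its level over all kept cells, so that subtraction took it to 0 by construction. A UMI of Fbln2 was found in 4.88%, 19.2% and 23.6% of thinned smooth muscle cells, against 2.10% of the macrophages of CNC_AngII, where its level was 4.38 CPM; unthinned, the shares were 8.76%, 34.0%, 38.998% and 5.004%. In fibroblasts the level was 564, 953 and 844 CPM, an AngII log2 ratio of 0.75 (0.73 to 0.78). As a share of the fibroblast level in the same library, smooth muscle Fbln2 was 2.25% in SHF_Baseline, 8.87% in SHF_AngII and 12.3% in CNC_AngII. Beside it, Dcn, Lum, Dpt and Pi16 in smooth muscle stood between 0.536% and 4.35% of their fibroblast levels in SHF_Baseline, between 0.885% and 5.56% in SHF_AngII and between 0.398% and 0.798% in CNC_AngII, and Col1a1 at 19.2%, 24.9% and 29.9%. Their part in the result was not tested. Gsn, also a fibroblast marker, was not compared in this way. With smooth muscle cells limited to those with at most 1 UMI of Dcn and none of Pi16, Dpt or Lum, a gate chosen after seeing the data, Fbln2 was at 8.82, 78.6 and 101 CPM.

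Fibulin-1, encoded by Fbln1, is an elastic fibre and basement membrane glycoprotein. Among fibroblasts it stood at 1412 CPM (1400 to 1424) in SHF_Baseline, 588 CPM (581 to 595) in SHF_AngII and 452 CPM (440 to 464) in CNC_AngII. The baseline library was the highest by more than 1.5-fold: the AngII log2 ratio was -1.26 (-1.28 to -1.24). In the same fibroblasts Dcn went from 15528 to 5757 CPM and the fibroblast marker sum from 37105 to 15089 CPM, while smooth muscle markers went from 1295 to 4061 CPM; their part in the result was not tested.

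In smooth muscle cells Fbln1 was at 38.9 CPM (36.7 to 41.2) in SHF_Baseline, 31.3 CPM (30.0 to 32.7) in SHF_AngII and 2.59 CPM (2.27 to 2.93), from 248 UMIs, in CNC_AngII. Both SHF libraries lay more than 10 times above the CNC library. The log2 ratio of CNC_AngII over SHF_AngII was -3.17, and -3.79 to -3.41 without the added CPM. The CNC value was at the background of its library: macrophages there had 2.31 CPM (1.65 to 3.14), and 1.16% of thinned cells carried a UMI in each, or 2.71% and 2.11% unthinned. The SHF libraries held too few macrophages for the same comparison. Among fibroblast markers, Dcn, Lum, Dpt and Pi16 were also lowest in smooth muscle of CNC_AngII, whereas Col1a1 and Gsn were highest there. In smooth muscle of SHF_Baseline, SHF_AngII and CNC_AngII, Dcn was at 311, 174 and 20.3 CPM and Lum at 85.1, 75.3 and 8.83 CPM. Dpt was at 15.5, 10.7 and 2.76 CPM and Pi16 at 18.3, 11.9 and 5.34 CPM. Col1a1 was at 709, 1105 and 1138 CPM, and the 7 fibroblast markers summed to 1742, 1900 and 1786 CPM. Gsn made up the rest of these sums, as Pdgfra was at 0 by the gate. Fibroblasts were 47.0%, 28.4% and 8.26% of kept cells. The gate limited to at most 1 UMI of Dcn and none of Pi16, Dpt or Lum left 1263, 3056 and 5684 cells. In it Fbln1 was at 12.3, 9.55 and 1.53 CPM, and the lineage log2 ratio was -2.06.

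In SHF smooth muscle, a UMI of Fbln1 was found in 20.8% of cells in SHF_Baseline and 15.4% in SHF_AngII. Among thinned cells the shares were 11.2% and 8.72%. Most of its UMIs were held by few cells. In SHF_AngII, 203 of 4649 cells (4.37%) had 3 or more UMIs and carried 71.6% of the Fbln1 UMIs, and in SHF_Baseline 136 cells (6.02%) carried 63.5%. These cells stood apart in other genes too. In SHF_AngII they had 2308 CPM of Dcn, against 54.9 CPM in cells without Fbln1, and 20850 CPM of Acta2, a contractile gene, against 36800 CPM. Their Eln was at 2928 CPM against 4361 CPM, and their Tnnt2, a troponin gene used below to divide the cells, at 1221 CPM against 388 CPM. In CNC_AngII only 18 cells had 3 or more UMIs. Across bands of Myh11, from 5 to 9 UMIs up to 40 or more, Fbln1 went from 106 to 17.0 CPM and Dcn from 864 to 71.5 CPM in SHF_AngII, and from 140 to 25.5 CPM and from 1548 to 165 CPM in SHF_Baseline. The part of fibroblast transcripts in the Fbln1 signal was not tested.

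Emilin1 encodes a glycoprotein at the interface of elastin and microfibrils. Unlike the genes above, it was lower in fibroblasts than in smooth muscle of SHF_Baseline, at 105 CPM (102 to 108) against 131 CPM (127 to 135). In the AngII libraries smooth muscle had 149 and 128 CPM, and fibroblasts 225 and 178 CPM. The AngII log2 ratio was 0.19 in smooth muscle and 1.09 (1.05 to 1.15) in fibroblasts. Its fibroblast over smooth muscle ratio went from -0.31 in SHF_Baseline to 0.59 in SHF_AngII, or 0.39 with TMM scaling, and 0.47 in CNC_AngII.

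**Figure D3:**
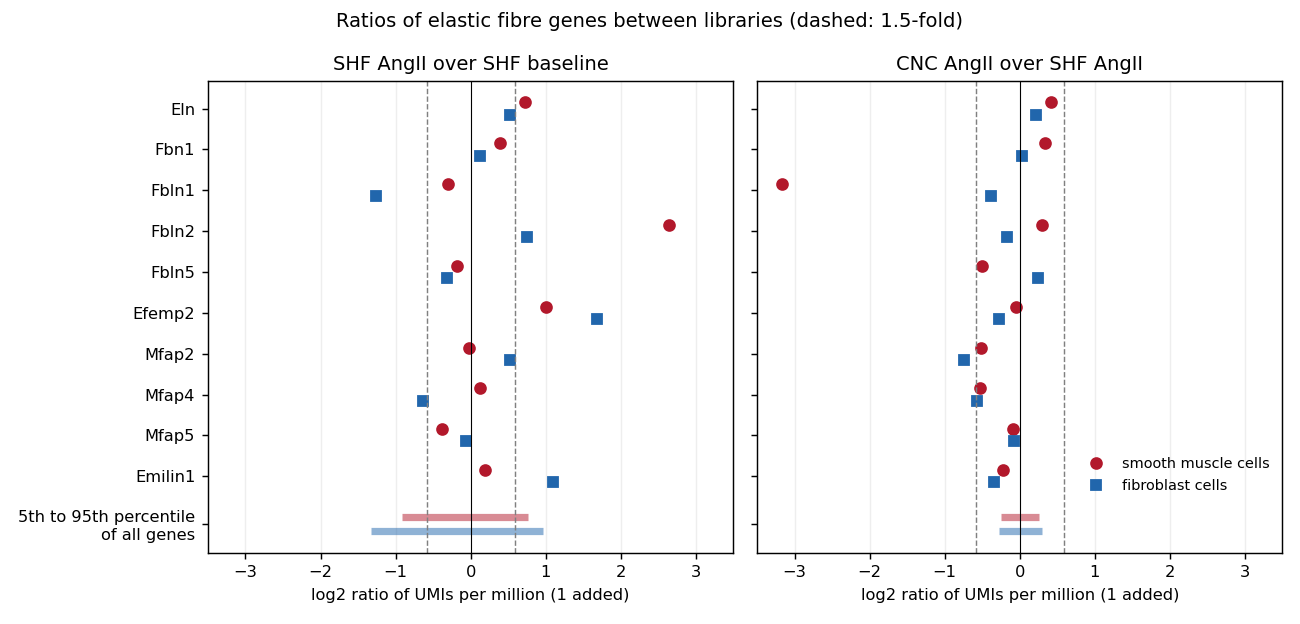
Log2 ratios of the 10 genes between libraries, with AngII over baseline in SHF cells on the left and CNC over SHF under AngII on the right; circles are smooth muscle cells, squares fibroblasts, dashed lines mark 1.5-fold and the bars at the bottom span the 5th to 95th percentile of all genes with a mean of at least 10 CPM. Fbln2 in smooth muscle at 2.64 and Fbln1 in smooth muscle at -3.17 lie furthest out.

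Read together, AngII over baseline gave 3 genes higher and 0 lower of 10 in smooth muscle (Eln, Fbln2 and Efemp2). Among all 7000 genes with a mean of at least 10 CPM, 8.76% were called higher and 15.6% lower. The median log2 ratio was 0.16 over the group and -0.10 over all genes. In fibroblasts 3 genes were higher (Fbln2, Efemp2 and Emilin1) and 2 lower (Fbln1 and Mfap4), where 10.5% and 27.6% of 7693 genes were called, with medians of 0.32 and -0.21. TMM scaling moved every log2 ratio of this comparison up by 0.18 in smooth muscle and 0.28 in fibroblasts, and in fibroblasts the counts were then 5 higher and 1 lower. In the main setting the middle 90% of all genes lay between -0.91 and 0.77 in smooth muscle and between -1.32 and 0.96 in fibroblasts. Outside that span lay Fbln2 and Efemp2 in smooth muscle and Efemp2 and Emilin1 in fibroblasts, all on the higher side. Between the AngII libraries fewer genes were called, both in the group and among all genes. In smooth muscle 0 genes were higher and 1 lower (Fbln1), where 0.946% and 0.99% of 6765 genes were called. In fibroblasts 0 were higher and 1 lower (Mfap2), where 1.25% and 1.07% of 7215 genes were called. The group's median was -0.16 in smooth muscle and -0.23 in fibroblasts, against 0.00 and 0.01 over all genes, and the middle 90% of all genes lay between -0.24 and 0.26 and between -0.28 and 0.29. Outside that span in smooth muscle lay Eln, Fbn1 and Fbln2 on the higher side and Fbln1, Fbln5, Mfap2 and Mfap4 on the lower, and in fibroblasts Fbln1, Mfap2, Mfap4 and Emilin1 on the lower.

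Between classes, 7 of the 10 genes were higher in fibroblasts and 0 lower in each library. The calls for all genes were 24.6%, 22.6% and 21.7% higher and 12.0%, 15.3% and 14.9% lower in SHF_Baseline, SHF_AngII and CNC_AngII. Fbn1, Fbln1, Fbln2, Mfap2 and Mfap5 were among the 7 in every library. Fbln5 and Mfap4 completed the set in SHF_Baseline, Efemp2 and Emilin1 in SHF_AngII, and Fbln5 and Efemp2 in CNC_AngII. Eln was in none of them in the main setting. TMM scaling lowers these ratios by 0.20 to 0.25 and gave 6 higher and 0 lower in SHF_Baseline and in SHF_AngII, and 7 higher and 1 lower (Eln) in CNC_AngII. The 10 genes together took 0.538%, 0.718% and 0.808% of smooth muscle UMIs and 1.23%, 1.24% and 1.21% of fibroblast UMIs. Of those UMIs, Eln held 48.4%, 60.0% and 71.5% in smooth muscle and 21.9%, 31.2% and 37.0% in fibroblasts, so its weight within the group was higher in both AngII libraries.

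For 3 fibulin genes that differed in their AngII ratio there is a promoter window free of annotated exons, shown so that their bases can be set beside the ratios. The windows are the 250 bases before a RefSeq start on GRCm38.p6, written 5′ to 3′ on the strand of the gene: chr15:85205699-85205948 (plus) for Fbln1, chr12:101819120-101819369 (minus) for Fbln5 and chr19:5473696-5473945 (plus) for Efemp2. Capitals mark CAGAC, a short motif bound by SMAD proteins, and GGGCGG, the GC box, on either strand.
Fbln1: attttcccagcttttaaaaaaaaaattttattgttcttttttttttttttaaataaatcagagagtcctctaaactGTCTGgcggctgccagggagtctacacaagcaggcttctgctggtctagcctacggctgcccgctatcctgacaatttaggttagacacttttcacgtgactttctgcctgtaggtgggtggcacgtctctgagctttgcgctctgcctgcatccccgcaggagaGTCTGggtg
Fbln5: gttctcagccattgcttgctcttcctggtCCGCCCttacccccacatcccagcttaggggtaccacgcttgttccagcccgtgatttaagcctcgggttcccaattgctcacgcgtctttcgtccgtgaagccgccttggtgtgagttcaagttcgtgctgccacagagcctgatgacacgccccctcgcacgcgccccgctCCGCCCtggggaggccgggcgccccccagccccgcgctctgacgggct
Efemp2: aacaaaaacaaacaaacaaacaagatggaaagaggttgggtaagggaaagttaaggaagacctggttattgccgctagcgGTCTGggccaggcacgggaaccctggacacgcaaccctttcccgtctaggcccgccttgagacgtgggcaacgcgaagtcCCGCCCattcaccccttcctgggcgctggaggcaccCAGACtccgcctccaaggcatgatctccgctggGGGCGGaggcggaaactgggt

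The Fbln1 window holds 2 matches of CAGAC and 0 of the GC box, the Fbln5 window 0 and 2, and the Efemp2 window 2 and 2; no marked match overlaps another. Their GC content is 46.4%, 65.2% and 59.2%, where the median over windows is 52.0%. Of 27025 genes with such a window, 42.1% hold CAGAC and 32.9% GGGCGG on either strand, so both are common. The CArG box (held by 1.40% of windows), the AP-1 motif TGANTCA (6.87%), CATTCC (12.6%) and TATAAA (13.0%) have no match in the 3 windows. Fbln1 and Fbln5 have 2 RefSeq starts each and Efemp2 has 3, and the window shown is the one without exon bases. In all, 7 of the 10 genes were matched to the RefSeq table; Eln, Mfap4 and Mfap5 were not.

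Genes linked to the assembly or breakdown of elastic fibres were followed as 2 further lists. Of 25 assembly genes, 15 had a mean of at least 10 CPM in the smooth muscle AngII comparison; 6 were higher and 3 lower, with a median log2 ratio of 0.01, where 8.76% and 15.6% of all genes were called. Lox, which encodes the lysyl oxidase that cross-links tropoelastin, was at 194 CPM in smooth muscle of SHF_Baseline, 369 CPM in SHF_AngII and 409 CPM in CNC_AngII. In fibroblasts it was at 246, 1178 and 1160 CPM, the largest AngII ratio of this list there, log2 2.25. The related oxidase genes Loxl1, Loxl2 and Loxl3 were higher in smooth muscle by log2 0.75, 1.16 and 0.79, as were Ltbp2 by 0.59 and Vcan, which encodes the proteoglycan versican, by 0.76. Ltbp4, which encodes a latent TGF-beta binding protein that works with fibulin-5, went the other way, from 421 to 135 CPM in smooth muscle and from 825 to 191 CPM in fibroblasts. Adamts10, at log2 -0.67, and Dcn, at -0.84, were also lower in smooth muscle; Dcn is one of the fibroblast markers above.

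In fibroblasts 3 of 20 measured assembly genes were higher (Lox, Loxl3 and Ltbp2) and 9 lower, with a median of -0.48, where 10.5% and 27.6% of all genes were called. Lower were Ltbp1, Ltbp4, Emilin2, Efemp1, Fbln7, Adamtsl2, Adamtsl4, Adamtsl5 and Dcn, with log2 ratios between -2.10 (Ltbp4) and -0.74 (Efemp1). Efemp1, which encodes fibulin-3, and Fbln7 are thus fibulin genes that were lower beside Fbln1, while Fbln2 and Efemp2 were higher. Between the AngII libraries 1 of 15 assembly genes was higher (Loxl3) and 2 lower (Loxl2 and Dcn) in smooth muscle, and 1 of 20 was lower in fibroblasts (Adamtsl2, from 156 to 93.0 CPM), where 1.25% of all genes were higher and 1.07% lower; in smooth muscle these shares were 0.946% and 0.99%.

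Of 16 genes on the list for elastin breakdown, 15 were in all files and 11 had at least 10 CPM. The list also holds inhibitors, and Neu1, Ctsa and Glb1, which are neither elastin-degrading enzymes nor inhibitors of them. In smooth muscle 6 were higher with AngII and 1 lower, with a median log2 ratio of 0.62, where 8.76% and 15.6% of all genes were called. In fibroblasts 2 were higher and 4 lower, with a median of 0.03, where 10.5% and 27.6% were called, so the share lower was near that of all genes. Timp1, an inhibitor of metalloproteinases, was at 23.3, 277 and 257 CPM in smooth muscle and at 202, 3267 and 2964 CPM in fibroblasts of SHF_Baseline, SHF_AngII and CNC_AngII. These AngII ratios of log2 3.52 and 4.01 were the largest of the 3 lists. The cathepsin gene Ctsl went from 464 to 788 CPM in smooth muscle and from 2268 to 1448 CPM in fibroblasts, and Timp2 from 480 to 843 CPM and from 1962 to 1155 CPM, so that each gene was higher in one class and lower in the other. Mmp14 was higher in both classes, by log2 0.67 and 0.83, and Ctsk and Glb1 in smooth muscle, by 1.18 and 0.62. Lower in fibroblasts were also Mmp2, by -1.29, and Neu1, by -0.65. Timp3, the inhibitor bound to the matrix, was lower in smooth muscle (696 to 445 CPM) and differed between the lineages in fibroblasts, with 1282 CPM in SHF_AngII and 2103 CPM in CNC_AngII. It was the only gene of this list called between lineages; 0 of 11 were called in smooth muscle.

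Within smooth muscle, cells were divided by a UMI of Spp1, Igfbp2 or Tnnt2, genes that differ between these libraries. Spp1 encodes osteopontin, a secreted matrix phosphoprotein. In SHF_AngII, 457 cells with an Spp1 UMI had 6761 CPM of Eln against 3901 CPM in the other 4192, and in CNC_AngII 1358 cells had 7623 CPM against 5051 CPM in 5027. Fbln2 was at 169 against 70.5 CPM and 164 against 80.3 CPM, and Fbn1 at 277 against 168 CPM and 296 against 207 CPM. Mfap4 went the other way, with 1034 against 1212 CPM and 626 against 902 CPM. Cells with an Spp1 UMI were deeper, with medians of 19749 against 12700.5 UMIs and 18596.5 against 12492 UMIs; the part of depth was not tested. In SHF_Baseline only 10 cells had an Spp1 UMI.

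Igfbp2 encodes an insulin-like growth factor binding protein. Cells with an Igfbp2 UMI had more Eln in each library: 3202 against 2379 CPM in SHF_Baseline, 4792 against 2957 CPM in SHF_AngII and 6093 against 4035 CPM in CNC_AngII. Fbln2 was likewise higher in them, at 25.8 against 7.77, 93.1 against 60.6 and 109 against 77.5 CPM. Fbln1 was lower, at 25.7 against 43.8, 14.8 against 77.5 and 2.10 against 5.26 CPM. In SHF_AngII the cells without Igfbp2 also had 433.5 CPM of Dcn, against 80.5 CPM. Fbln1 was higher in cells with a Tnnt2 UMI in each library. It was at 46.3 against 11.9 CPM in SHF_AngII and at 44.2 against 25.5 CPM in SHF_Baseline. In CNC_AngII it was at 3.49 against 2.32 CPM, where macrophages had 2.31 CPM. Dcn was at 236.5 against 92.0 CPM in SHF_AngII, and at 314 and 304 CPM in SHF_Baseline. For Lum, Dpt and Pi16 the log2 ratios of this split were 1.89, 1.13 and 0.18 in SHF_AngII. The interval of the last includes 0. In SHF_Baseline they were -0.01, -0.96 and -1.42, so Dpt and Pi16 went opposite to Fbln1 there.

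**Figure D4:**
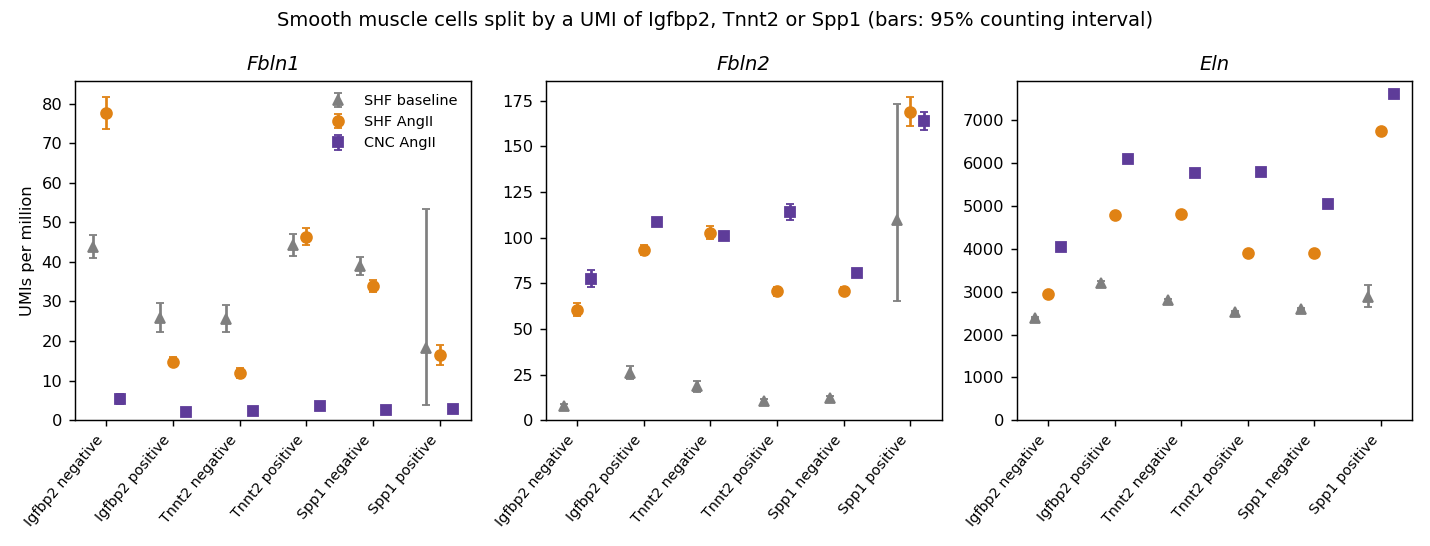
Level of Fbln1, Fbln2 and Eln, in CPM, in smooth muscle cells with and without a UMI of Igfbp2, Tnnt2 or Spp1, for the 3 libraries; bars are 95% Poisson intervals. Fbln1 reaches 77.5 CPM in SHF_AngII cells without Igfbp2, and Fbln2 reaches 169 CPM in SHF_AngII cells with Spp1; the SHF_Baseline points with Spp1 rest on 10 cells.

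Fibroblasts differed among themselves in other genes of the group. Cells with a UMI of Pi16, a marker of adventitial fibroblasts, were 86.0%, 89.96% and 84.9% of the class. Their Mfap5 was at 3373 against 678 CPM in SHF_Baseline, 3062 against 940 CPM in SHF_AngII and 2982 against 1135 CPM in CNC_AngII. Fbln2 followed with 635 against 104, 997 against 437 and 905 against 415 CPM, and Fbn1 with 895 against 349, 924 against 547 and 954 against 606 CPM. Emilin1 was lower in the cells with Pi16, at 90.4 against 199, 217 against 321 and 174 against 205 CPM. Cells with a UMI of Cthrc1, a matrix gene of activated fibroblasts, were 12.1% of the class in SHF_Baseline, 62.3% in SHF_AngII and 55.8% in CNC_AngII. They had less Fbln1, at 1289 against 1435, 527 against 765 and 344 against 676 CPM, and more Mfap5, at 4925 against 2655, 3224 against 1931 and 3189 against 1836 CPM. Eln was higher in them in the AngII libraries, at 4202 against 2887 CPM and 5033 against 3313 CPM, and at 2572 against 2719 CPM in SHF_Baseline. Their median depth in SHF_AngII was 19231 UMIs, against 10656.5 UMIs in cells without Cthrc1.

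Across single fibroblasts thinned to 5000 UMIs, Eln, Fbln5 and Mfap4 were correlated with each other, and so were Fbn1, Fbln2 and Mfap5; these sets were picked after the values were seen. In SHF_Baseline, SHF_AngII and CNC_AngII, Pearson's r was 0.49, 0.45 and 0.51 for Eln and Fbln5, and 0.55, 0.37 and 0.21 for Eln and Mfap4. It was 0.58, 0.45 and 0.47 for Fbln2 and Mfap5, and 0.48, 0.36 and 0.36 for Fbn1 and Mfap5. Between the sets the 9 pairs ran from -0.19 to 0.05 in SHF_Baseline, below each pair within a set. In the AngII libraries the separation was smaller or absent: Eln and Fbn1, of different sets, had 0.23 in SHF_AngII and 0.27 in CNC_AngII. In CNC_AngII this pair, Fbln2 and Mfap4 (0.25) and Mfap4 and Mfap5 (0.23) were above Eln and Mfap4 and above Fbln5 and Mfap4 (0.15), pairs within a set. Emilin1 was inversely related to Mfap5, at -0.31, -0.20 and -0.18. Eln and Fbln1 changed sign, from 0.11 in SHF_Baseline to -0.17 in SHF_AngII and -0.25 in CNC_AngII. These values describe 3222, 2503 and 768 cells of 1 library each, which share its preparation; the cells are not replicates, and low counts lower r.

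**Figure D5:**
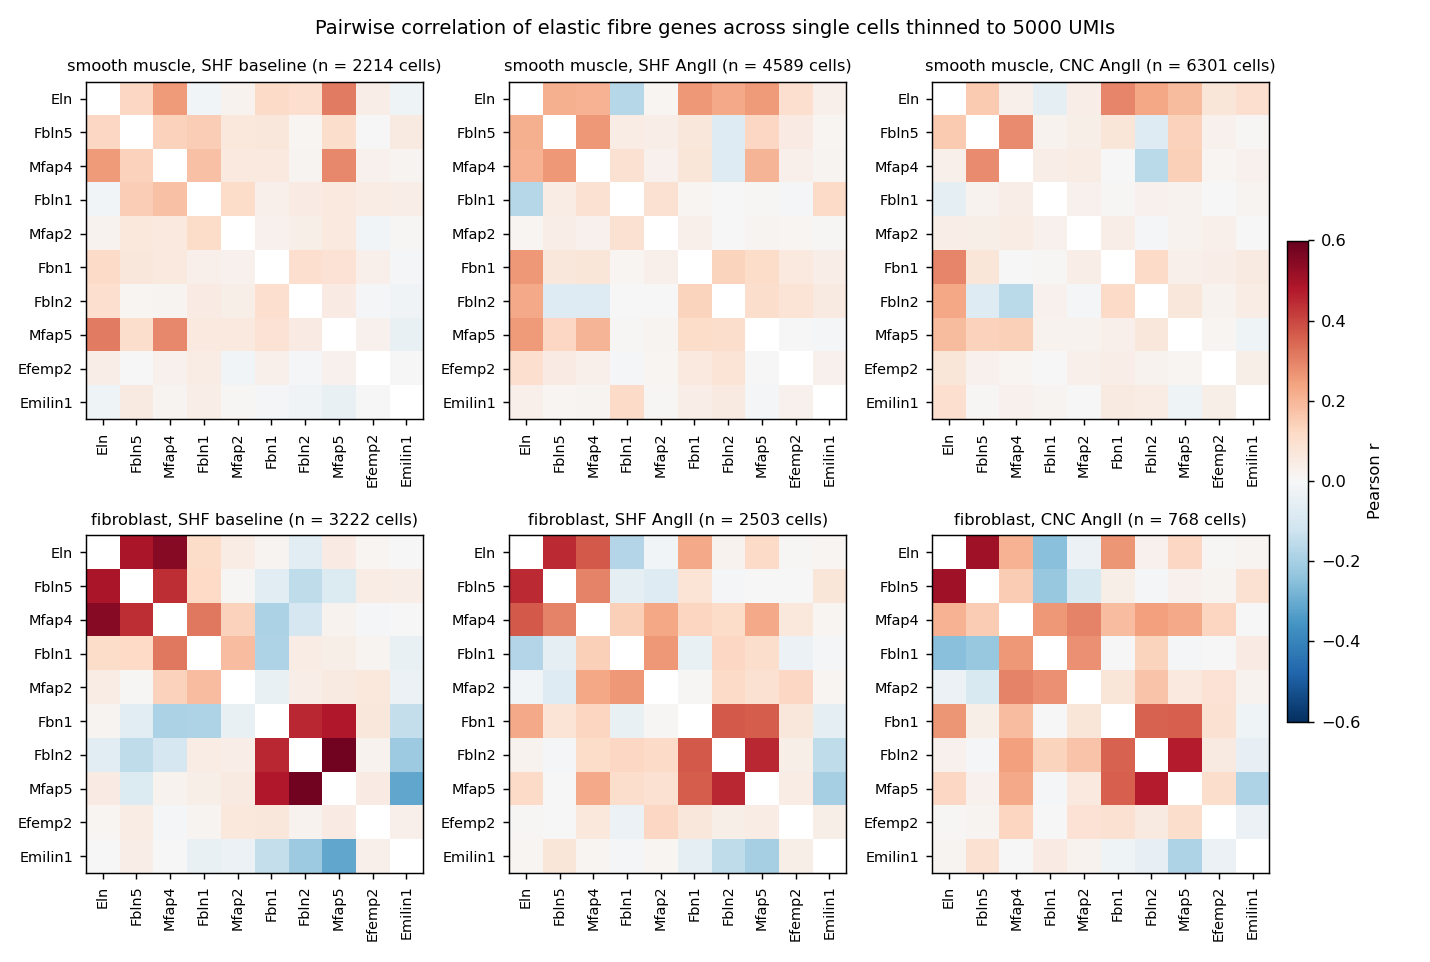
Pearson's r between each pair of the 10 genes across single cells thinned to 5000 UMIs, for smooth muscle cells (top) and fibroblasts (bottom) of the 3 libraries; red is positive and blue negative. In fibroblasts the block of Eln, Fbln5 and Mfap4 reaches 0.55 and the block of Fbn1, Fbln2 and Mfap5 reaches 0.58, both in SHF_Baseline.

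In smooth muscle the correlations were weaker. Of 45 pairs, 3, 7 and 3 had an r of at least 0.2 in SHF_Baseline, SHF_AngII and CNC_AngII, against 7, 10 and 11 in fibroblasts. Eln was in 5 of the 7 pairs of SHF_AngII. Eln and Mfap5 had 0.31, 0.26 and 0.19, and Eln and Fbn1 0.12, 0.26 and 0.29. The genes most like Eln across smooth muscle cells, of 2042 with at least 50 CPM in each library, were Sparc, which encodes a collagen-binding matrix protein, with a mean r of 0.55 over the 3 libraries, Col1a2 with 0.47, Nupr1 with 0.44, Col1a1 with 0.43 and Col3a1 with 0.39. Among fibroblasts and 2107 genes they were Sparc and Ccn2 with 0.46 each, Ccn5 with 0.45, Nupr1 with 0.43 and Gxylt2 with 0.42. Sparc thus led in both classes. Mfap5 in fibroblasts was most like Pi16, with 0.61, followed by Ly6a with 0.53, Ly6c1 with 0.46, Fstl1 with 0.43 and Cd248 with 0.42. In smooth muscle the values for Mfap5 were low, from 0.26 for Sparc through Col1a2, Anxa3 and Col3a1 to 0.15 for Ccn2.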

How the data were processed

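Single cells of the mouse aorta were profiled by 10x Chromium 3′ v3, per the labels' protocols. The authors deposited 1 table of raw UMI counts per library, whole numbers per gene and cell barcode, not normalised; fastp, STAR 2.5, HTSeq 0.6.1 and mm10 are named in the submitters' processing notes, and the annotation is not given in the sources used here. Names were matched across tables, 518 through a synonym, and 13 duplicate names were left out; the 18112 common genes held 99.9%, 99.6% and 99.6% of UMIs.

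From the deposited counts, barcodes were kept where they had 500 or more genes and no more than 10% mitochondrial UMIs, and doublets marked by Scrublet in scanpy 1.11.5 (207, 192 and 279 cells) were left out, leaving 8374, 9299 and 10194 cells in SHF_Baseline, SHF_AngII and CNC_AngII. More than 10% mitochondrial UMIs were found in 7.34%, 14.5% and 5.30% of barcodes. Cells outside both gates were 26.0%, 21.6% and 29.1%. UMIs were summed per class and library and scaled to the class total (CPM). Ratios are log2 of CPM with 1 CPM added, and 1.5-fold is the mark for a call. Intervals are exact Poisson for sums, exact binomial (Clopper-Pearson) for shares and conditional binomial for ratios, without the added CPM. Scaling by TMM used edgeR 4.0.16. Correlations used log1p of scaled UMIs in cells thinned to 5000 UMIs, which left out 45, 60 and 84 smooth muscle cells and 717, 137 and 74 fibroblasts. The calculation was tested on simulated counts with known ratios.

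Positions are from GENCODE M21 (GRCm38, the same assembly as mm10), promoters from RefSeq (GRCm38.p6). The genes, lists, gates and dividing genes were chosen with earlier results of these data known. The named genes are the 10 members, genes of both lists past 1.5-fold or at 50 CPM or more in a comparison, and the 5 genes most like Eln and Mfap5 per class; not every list gene at 50 CPM is printed. The alternatives tried were other cell filters, gates, totals, scalings, pseudocounts, folds, depths and a subtraction of 5% of the library profile. CNC_Baseline was not analysed here.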

Additional observations from a re-analysis of the deposited data

Results flagged for a closer look

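For 3 genes the effect of the same contrast had opposite signs in the 2 cell classes, with a counting interval apart from 0 in both; with 1 library per group the difference itself was not tested. Fbln2 was higher in CNC_AngII than in SHF_AngII smooth muscle cells, at a log2 ratio of 0.29, and lower among fibroblasts, at -0.17. Fbln5 in the same contrast was at -0.50 in smooth muscle and 0.24 in fibroblasts. Mfap4 in SHF_AngII over SHF_Baseline was at 0.12 in smooth muscle and -0.63 in fibroblasts. Mfap2 in that contrast was at -0.02 in smooth muscle, with an interval that includes 0, and at 0.53 in fibroblasts, and is not among the 3. These signs held under each alternative tried for the 3 genes.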

How the results depend on the processing

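The number of the 10 genes called was within 1.5 times its main value under most alternatives. In smooth muscle the AngII count of 3 was 6 with the stricter cell filter, which left 120 cells of SHF_Baseline, and the lineage count of 1 was 3 with that filter and 2 with 5% of the library profile subtracted. In fibroblasts the AngII count of 5 was 3 at a fold of 2, and the lineage count of 1 was 2 with TMM scaling, 2 with doublets kept and 0 at a fold of 2. The fibroblast over smooth muscle ratio of Fbln5 in SHF_Baseline, 0.61, reversed to -0.041 with the stricter cell filter. Fbln1 in smooth muscle, AngII over baseline, ran from -1.80 with that filter to 4.32 with 5% subtracted, where SHF_Baseline fell to 0 by construction. The cause of the other changes was not tested. Of 980 values under alternatives, 558 moved by less than the counting interval, 421 by more, and 1 past 1.5-fold changed sign. In all, the sign differed from the main value in 10; the others were not past 1.5-fold in the main setting. No paired analysis was possible because each group has 1 library. Without replicates, differences between mice and between preparations have no estimate.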
